A study of Mus musculus with 2 samples.

Results

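A set of 54 genes of the bone morphogenetic protein (BMP) and TGF-beta pathway was followed in the posterior end of mouse embryos that lack Cdx4 and carry 1 functional copy of Cdx2. The set was drawn up by gene name, with earlier results of these data known. It comprises 18 ligands, 9 secreted antagonists and modulators, 14 receptors and co-receptors, 7 Smads and 6 target genes. The array holds 32914 named genes. Probes were found for 53 of the 54 genes, all but Smad5, and 48 were measured. Measured here means that, for at least 1 genotype, the scanner software set the spot well above background on both arrays. Gdf3, Inhbb, Nog, Tdgf1 and Neo1 had a probe that did not reach this level, so they have no ratio here.

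Cdx2 and Cdx4 are homeobox transcription factors of the embryo's tail end. The mutant group was Cdx2+/-Cdx4-/- and the control group was wildtype, both at the stage of 13 somites, and the last somite border set the level at which the posterior part was cut off. Tissue of 7 embryos was combined per genotype, read here as 1 pool each, and hybridised on 2 Agilent whole-genome arrays with the dyes exchanged. The mutant pool carried the dye Cy5 on array 1 and Cy3 on array 2. Strain, sex and the construction of the alleles are not given in the sources used here. The labels do not say whether both arrays received the same RNA extracts. They were taken here as technical repeats of 1 comparison, so the SD given below is between these 2 arrays and no p-value between genotypes is given. How much embryos or further pools vary was not measured.

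BMPs, growth and differentiation factors, activins, Nodal and the TGF-betas are secreted dimers that bring together type I and type II receptor kinases on the cell surface, which then phosphorylate Smad proteins. Smads of the BMP branch (Smad1 and Smad5) and of the activin, Nodal and TGF-beta branch (Smad2 and Smad3) share the partner Smad4, enter the nucleus and regulate targets such as the Id genes. In the posterior embryo BMP signals are known for roles in the allantois, the ventral and lateral mesoderm and the germ cell precursors, and secreted antagonists limit where the ligands act.

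The labels were first checked against the targeted genes. The log2 ratio of Cdx4, mutant over wildtype, was -2.61 on array 1 and -2.44 on array 2, a 5.75-fold lower signal in the mutant pool. Cdx2, of which 1 copy remains, had a mean log2 ratio of -0.05 ± 0.09 (SD of 2 arrays). Whether these probes lie inside the deleted part is not known here. Each array held 41174 gene spots, of which 77.4% to 82.5% per dye were well above background. Markers of the posterior tissue were present, with 7 of 7 tailbud markers and 6 of 6 presomitic mesoderm markers measured. Of 4 head markers 3 were also measured (Six3, Lhx2 and Emx2), none of them called.

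A gene was called higher or lower when its ratio reached 1.5-fold (0.585 on the log2 scale) in the same direction on each array. By this size rule 5 of the 48 measured members were higher in the mutant pool (Cer1, Fst, Rgma, Gdf10 and Tgfb2) and 1 was lower (Inhba), while 42 did not pass. Over all 25998 measured genes, 0.212% were called higher and 0.231% lower, 0.442% in either direction. Because the members were chosen with earlier results of these data known, the difference in share is not a test of the set. The called members were 2 secreted antagonists, 3 ligands and 1 co-receptor, and no Smad or target passed. In RNA from whole tissue, fewer cells of a type and less RNA per cell cannot be told apart.

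**Figure D1:**
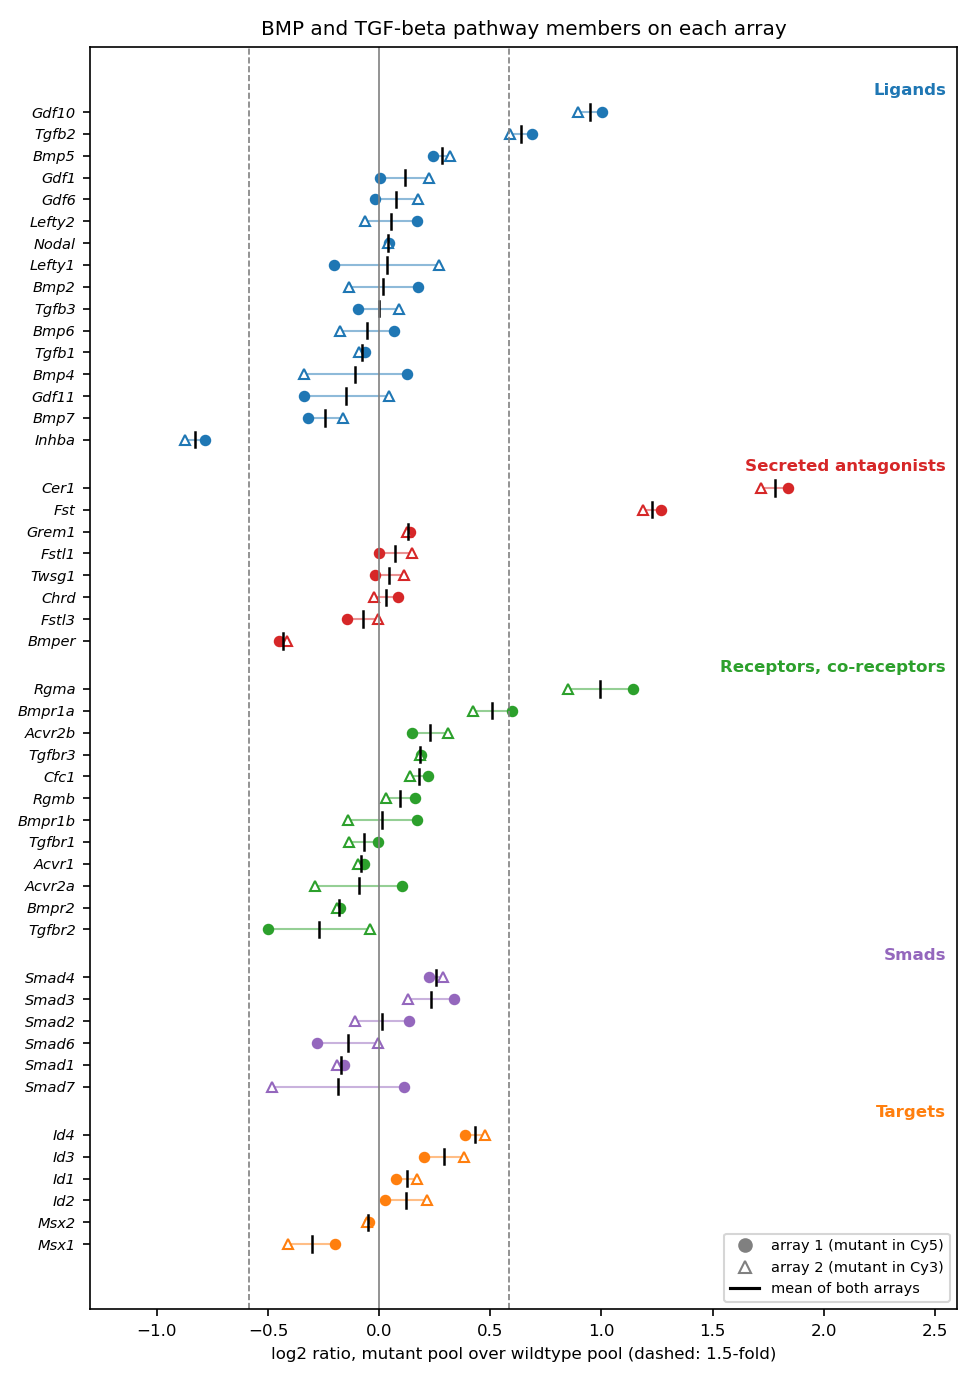
Log2 ratio, mutant pool over wildtype pool, of the 48 measured members, ordered by role. Filled circles are array 1, open triangles array 2, black ticks their mean, and dashed lines mark 1.5-fold; Cer1, Fst, Rgma, Gdf10 and Tgfb2 lie above the upper line on both arrays and Inhba below the lower one.

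The members as a set were centred near 0. Their median log2 ratio was 0.037, against -5.2e-05 over all measured genes. Mean ratios lay within 0.2 of 0 on the log2 scale for 31 of the 48 members (64.6%) and for 90.6% of all genes. Both arrays gave the same sign for 33 members, with 20 above 0 and 13 below 0, and 15 had opposite signs. With median centring of each array in place of loess, 10 members were above 0 and 8 below 0 on both arrays, so the direction of members with small ratios depended on the dye correction. Over all genes 47.7% had the same sign on both arrays, 23.3% above and 24.5% below.

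**Figure D2:**
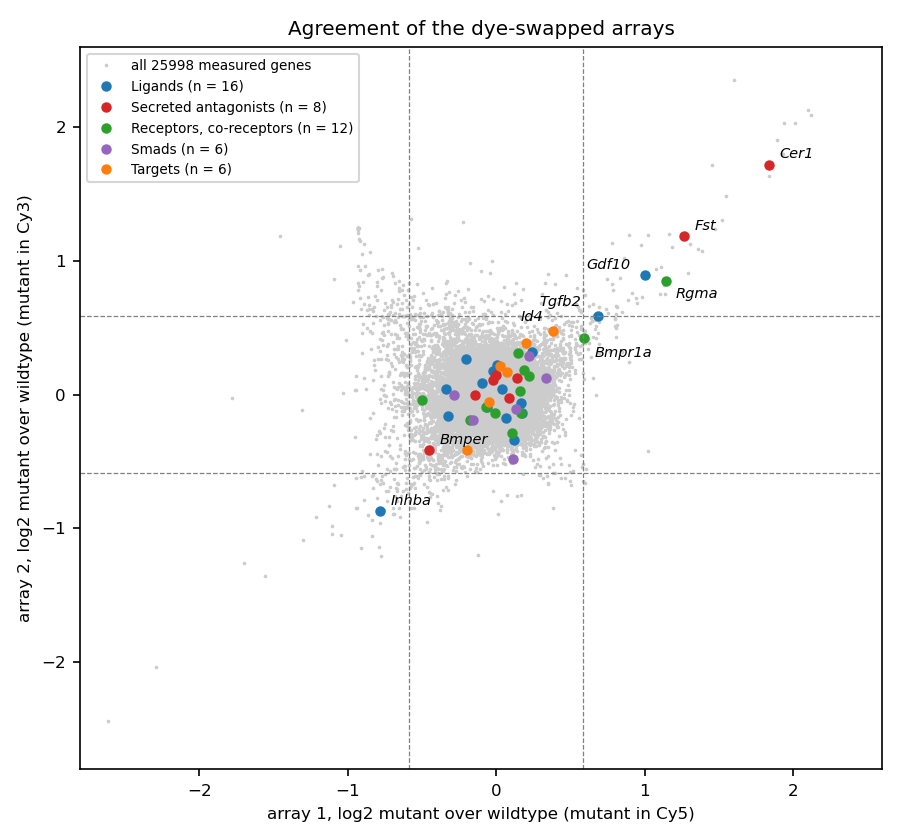
Log2 ratio, mutant over wildtype, on array 1 (horizontal axis) against array 2 (vertical axis) for all 25998 measured genes in grey and the members coloured by role, with dashed lines at 1.5-fold. Only 6 members lie beyond the dashed lines on both axes in 1 direction, Inhba at the lower left and the other 5 at the upper right.

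Markers listed by cell type also differed between the pools, and their part in the results below was not tested. The lists were chosen with earlier results of these data known, and in a summed intensity the brightest markers weigh most. Of 4 measured somite markers, 3 were called higher (Meox1, Tcf15 and Foxc2), and the summed normalised intensity of the list was 2339.7 and 2454 in the wildtype pool against 3799 and 3628 in the mutant pool. The gut endoderm list had 3 of 9 called higher (Trh, Nepn and Spink1), with sums of 2663 and 2442 in wildtype and 3608 and 3544 in mutant. Of its other markers Foxa2 had a mean log2 ratio of 0.33, and those of Sox17, Foxa1, Cldn6, Epcam and Shh lay between -0.04 and 0.13. All 10 endothelial markers had ratios below 0 on both arrays, 7 of the 10 with median centring in place of loess, and 2 were called lower (Cldn5 and Sox18). Their sums were 11619 and 10642 in wildtype and 8086 and 7590.4 in mutant. Among 7 tailbud markers 1 was called lower (Greb1), and the sums were 10897 and 10908 against 7729 and 7677. The median log2 ratio of this list was -0.05. T and Wnt3a had means of -0.50 and -0.46, and those of Fgf8, Cdx1, Nkx1-2 and Evx1 lay between -0.05 and 0.19. For 7 lateral plate and allantois markers, none of them called, the sums were 5437 and 5446 against 4581 and 4402. Of 4 measured neural tube markers 1 was called higher (Sox2), with sums of 882 and 961 against 1300.0 and 1345. Sox1 had a mean of 0.37 ± 0.47, Irx3 of 0.46 and Pax6 of -0.07. Of 6 presomitic mesoderm markers 1 was called higher (Dll1), with sums of 3406 and 2898 against 3874 and 3638. Means of the other presomitic markers lay between -0.12 and 0.12, and the median of that list was 0.07. Uncx and Myf5, markers of formed somites and of muscle precursors, were not well above background.

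Upstream stretches are shown for those called members that have an entry in the RefSeq promoter table (build GRCm38.p6), so that the genes that differed most between the pools can be read next to their start sites. Each is the 150 bases before the annotated start, 5′ to 3′ on the gene's own strand, in lower case with any CAGAC, the short sequence that Smad3 and Smad4 recognise, in capitals. They lie at chr4:82885152-82885301 (minus strand, Cer1), chr14:33923437-33923586 (plus strand, Gdf10), chr1:186705990-186706139 (minus strand, Tgfb2) and chr13:16011701-16011850 (plus strand, Inhba).
Cer1: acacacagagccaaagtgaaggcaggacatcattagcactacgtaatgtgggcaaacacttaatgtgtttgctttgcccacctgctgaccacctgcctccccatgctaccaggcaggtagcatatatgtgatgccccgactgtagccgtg
Gdf10: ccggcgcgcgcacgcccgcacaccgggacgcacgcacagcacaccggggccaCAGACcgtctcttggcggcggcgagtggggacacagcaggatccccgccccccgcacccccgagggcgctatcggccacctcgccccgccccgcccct
Tgfb2: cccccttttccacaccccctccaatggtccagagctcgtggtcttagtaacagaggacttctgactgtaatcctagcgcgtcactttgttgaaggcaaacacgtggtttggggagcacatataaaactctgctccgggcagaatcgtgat
Inhba: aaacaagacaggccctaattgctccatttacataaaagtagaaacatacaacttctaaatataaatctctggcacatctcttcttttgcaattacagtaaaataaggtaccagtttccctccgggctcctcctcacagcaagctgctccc

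Short sequences were searched on both strands in windows from 250 bases before to 50 bases after the start. TTTATNG, which holds the core of the sequence that Cdx proteins bind, was found in 5 of the 47 windows of 39 member genes (10.6%, in Bmp5, Fstl3, Gdf11 and Rgmb), against 10.9% of all 32851 windows. It was in none of the windows of Cer1, Gdf10, Tgfb2 and Inhba. The shorter TTTAT, without the G, was not counted. It stands on the opposite strand (ataaa) in the printed stretches of Inhba and Tgfb2, so Cdx binding there cannot be judged from TTTATNG alone. CAGAC was found in 48.9% of member windows and 49.6% of all windows, among them those of Cer1, Gdf10 and Tgfb2. GGCGCC, found in elements that Smad1 and Smad5 bind, was in 27.7% of member windows and 11.9% of all windows, without matching for base composition, and of the 4 called members searched (Cer1, Gdf10, Tgfb2 and Inhba, not Fst and Rgma) the Gdf10 window held it. The printed stretch was 78.7% G and C for Gdf10, 52.0% for Cer1, 51.3% for Tgfb2 and 40.7% for Inhba. A match says only that these letters are there, and none of the search words contains another.

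Among the secreted antagonists, Cer1 and Fst were called higher and no member was called lower, out of 8 measured, with a median log2 ratio of 0.06. Cer1 (Cerberus like 1) is a secreted protein that binds Nodal and BMPs and is known from the anterior endoderm and from forming somites. Its normalised intensity, which is brightness after background correction in arbitrary units, was 75.9 and 71.2 in the wildtype pool on arrays 1 and 2 and 272 and 234 in the mutant pool. Mutant values stood above wildtype values on both arrays without overlap. How many of all genes lack overlap was not counted, which also holds for the genes below. Called genes, here and below, were selected by the size rule on each array. Lack of overlap in these same readings therefore adds no separate support to a call. The log2 ratio was 1.84 and 1.72, or 1.78 ± 0.09 (3.44-fold), and ranked 7 among the 55 genes called higher. In wildtype the spot was close to the floor, with a scanned brightness of 113 and 115 against 109 and 92.2 at the negative control spots of the same dye, and it was well above background on 1 of 2 arrays. For a spot this dim the background correction sets the size of the ratio, which ran from 1.34 with no background subtraction to 3.70 in the scanner software's own values. The probe is listed at chr4:81159734-81159793, in coordinates of a build that the files do not name, as for every probe below.

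Fst encodes follistatin, which binds and neutralises activins and also binds some BMPs. Wildtype intensity was 228 and 230.0 and mutant intensity 549 and 523, again without overlap. On the log2 scale the ratio was 1.27 and 1.19, or 1.23 ± 0.06 (2.34-fold). This probe is listed at chr13:111408032-111408091. A dimmer Fst probe, 3.29 kb away in the same gene, gave 0.19 and 0.56, both above 0 and both short of the size rule, so the probes for Fst disagree in size. With the median of both probes in place of the brighter one, Fst had a ratio of 0.80.

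Bmper, a secreted modulator that binds BMPs and is known for its role in blood vessel formation, was nearest to the threshold on the low side. Its intensity was 181 and 191 in wildtype and 133 and 143 in the mutant pool. Bmper had a log2 ratio of -0.45 and -0.42, or -0.43 ± 0.02, short of 1.5-fold but past 1.3-fold on both arrays. At 1.3-fold 0.75% of all genes were lower and 0.539% higher. The scanner software's own ratio put Bmper past the size rule at -0.74. The other antagonists were close to 0: Grem1, the limb BMP antagonist gremlin, at 0.13, Chrd, the organiser's BMP antagonist chordin, at 0.03, Twsg1, a chordin partner, at 0.04, and the follistatin relatives Fstl1 and Fstl3 at 0.07 and -0.07. Their individual array ratios all lay between -0.14 and 0.15 at the probes used. A dimmer Chrd probe, also above background, read 0.08 and -0.32.

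**Figure D3:**
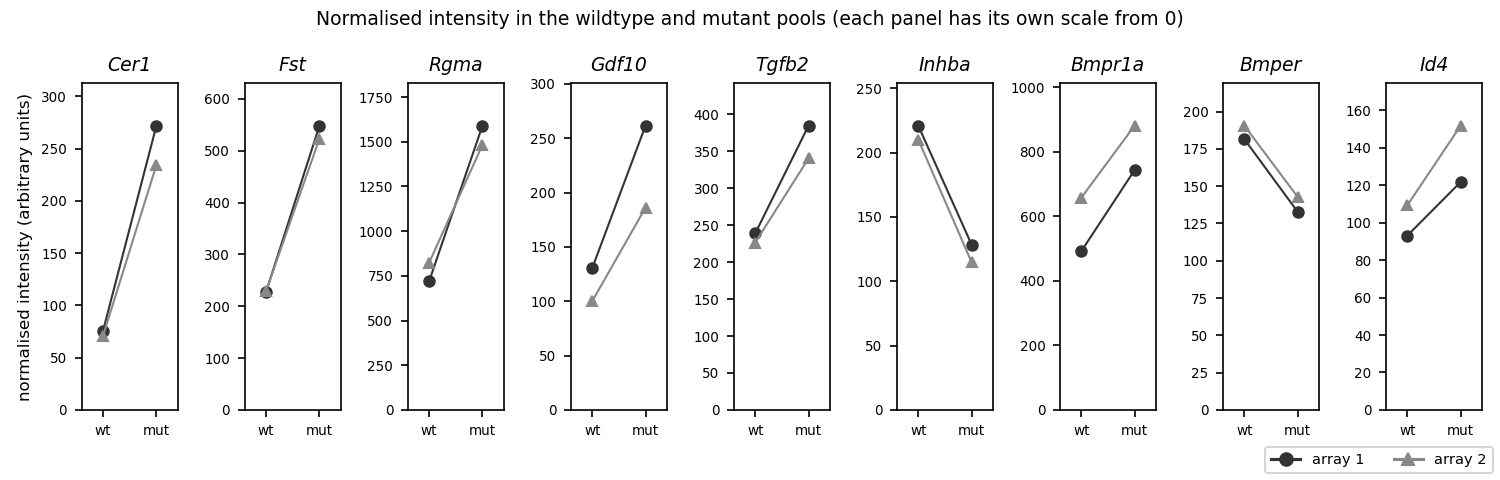
Normalised intensity, in arbitrary units on a linear axis from 0, of the 6 called members and of Bmpr1a, Bmper and Id4 in the wildtype (wt) and mutant (mut) pools, with a line per array. Each gene has its own scale, so heights are not comparable between panels; in each panel both arrays slope the same way, up for all but Inhba and Bmper.

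Of 16 measured ligands, Gdf10 and Tgfb2 were called higher and Inhba lower, and the median log2 ratio was 0.03. Gdf10, also known as BMP3b, belongs to a subgroup of the family that is known for opposing other BMPs. Its intensity was 130.4 and 100.1 in the wildtype pool and 262 and 186 in the mutant pool. Both mutant values exceeded both wildtype values. Its log2 ratio was 1.004 and 0.90, or 0.95 ± 0.08 (1.93-fold), at chr14:29978504-29978563. The mean depended on the background correction, from 0.74 with no background subtraction to 1.53 in the software's values. A further Gdf10 probe was not well above background and had a mean ratio of 0.08.

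Tgfb2, one of the TGF-beta isoforms, had intensities of 239 and 227 in wildtype and 385 and 341 in mutant. Log2 ratios were 0.69 and 0.59, or 0.64 ± 0.07 (1.56-fold), for a probe listed from 186270574 to 186293401 on chromosome 1. Of the 55 genes called higher it had the rank 55, and on array 2 its ratio of 0.588 was barely beyond the threshold of 0.585. The call was lost with no background subtraction (mean 0.55) and with median centring in place of loess (1.03 and 0.16). On array 2 the scanned brightness before dye correction was 324 in wildtype and 303 in mutant.

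Inhba, which encodes the beta A subunit of activin A, was the member called lower. It had 221 and 210.1 units in the wildtype pool and 129 and 115 in the mutant pool, without overlap. The log2 ratio was -0.78 and -0.87, or -0.83 ± 0.06, which is 1.77-fold lower in the mutant pool, and it ranked 20 among the 60 genes called lower. The probe is listed at chr13:15383991-15384050. The pools thus differed in opposite directions for the activin subunit and for the activin-binding follistatin. The ratio of Inhba stayed below 0 in each alternative run, from -0.65 with no background subtraction to -1.28 in the software's values.

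Leaving aside Gdf10 and the Nodal partner Gdf1, which was not called, 7 BMPs and GDFs were measured and none of them passed. Bmp4, the main BMP of the allantois and posterior mesoderm, had intensities of 3626 and 4305 in wildtype and 3951 and 3407 in mutant. Its log2 ratio was 0.12 on array 1 and -0.34 on array 2, so the arrays disagreed on the direction and the pools overlapped. Bmp7, a BMP of many epithelia, had -0.32 and -0.16, but 0.09 and -0.73 with median centring in place of loess. Bmp5, which acts in skeletal development, had 0.24 and 0.32. Means for Bmp2, Bmp6, Gdf6 and Gdf11 were 0.02, -0.05, 0.08 and -0.15, with array signs that differed for all 4. Gdf11 is the ligand known for setting the trunk to tail transition, and its probe read -0.34 and 0.04.

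On the Nodal side of the family only Cer1 was called, out of 6 measured genes. Nodal itself, which patterns the mesendoderm and the left side of the body, had log2 ratios of 0.04 and 0.04. Gdf1, whose product pairs with Nodal, had a mean of 0.12 from a probe whose transcripts also carry Cers1, and the Nodal inhibitors Lefty1 and Lefty2 had means of 0.03 and 0.05. The Lefty1 probe lists accessions of Lefty2 as well, so these close copies may share signal. Tgfb1 and Tgfb3, the other TGF-beta isoforms, had means of -0.08 and -0.00.

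Among 12 measured receptors and co-receptors, Rgma was called higher and none lower, with a median of 0.05. Rgma (repulsive guidance molecule A) is a membrane-anchored BMP co-receptor that is also a ligand of neogenin. Its intensity was 721 and 824 in the wildtype pool and 1590.3 and 1483 in the mutant pool. Both mutant values lay above both wildtype values. The log2 ratio was 1.14 and 0.85, or 0.99 ± 0.21 (1.99-fold), at chr7:60464279-60464338. A dimmer Rgma probe, listed 45.9 kb away, gave -0.12 and 0.15, so the higher signal was seen at 1 of 2 probes. The call was lost with the median over both probes (0.50) and with median centring in place of loess (1.61 and 0.23). On array 2 the scanned brightness was 1149 in wildtype and 1087 in mutant before dye correction.

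**Figure D4:**
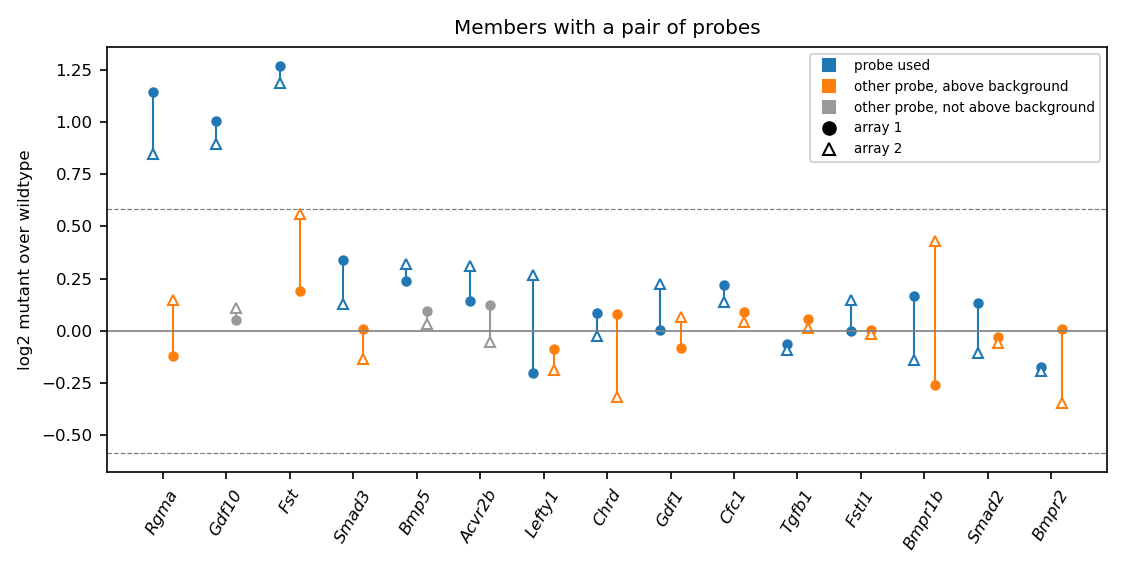
Log2 ratio, mutant over wildtype, of both probes for each of the 15 members that have a pair of probes (circles array 1, triangles array 2, lines joining the arrays). Blue is the probe that stands for the gene, orange a further probe above background and grey one that is not; for Rgma, Gdf10 and Fst the pair lies apart by 0.98, 0.87 and 0.85 in mean ratio, and for the other 12 genes by at most 0.30.

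Bmpr1a, a type I receptor for BMPs that is needed for gastrulation, was nearest to the threshold on the high side. It had 492 and 658 units in wildtype and 743 and 881 in mutant. The log2 ratio was 0.60 and 0.42, or 0.51 ± 0.12 (1.42-fold), past 1.5-fold on array 1 alone. With median centring in place of loess it read 1.02 and -0.16, so the direction on array 2 was lost. Tgfbr3, the co-receptor betaglycan, had 74.6 and 86.9 units in wildtype and 84.9 and 98.5 in mutant, with a ratio of 0.19 and 0.18 and overlapping pools, and -0.02 and 0.32 with median centring. The type II receptor Tgfbr2 had -0.50 and -0.04, an SD of 0.32 that exceeded its mean of -0.27. For the type II receptors Acvr2b, Acvr2a and Bmpr2 the means were 0.23, -0.09 and -0.18, and for the type I receptors Bmpr1b, Tgfbr1 and Acvr1 they were 0.01, -0.07 and -0.08. The co-receptors Cfc1, which serves Nodal, and Rgmb, a BMP co-receptor related to Rgma, had 0.18 and 0.09.

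None of the 6 measured Smads passed, and their median was -0.06. Smad4, the shared partner, had 703 and 780.2 units in the wildtype pool and 820.3 and 952 in the mutant pool. Its log2 ratio was 0.22 and 0.29, or 0.25 ± 0.05. Smad3, which transmits activin, Nodal and TGF-beta signals, had 1439 and 1590.1 in wildtype and 1820.0 and 1738 in mutant, with a ratio of 0.34 and 0.13; a further probe averaged -0.06. Smad1, of the BMP branch, had 450.5 and 457 in wildtype and 404 and 401 in mutant, and a ratio of -0.16 and -0.19. The ratios of these 3 genes were all under 1.5-fold. With median centring in place of loess all 3 had opposite signs on the arrays, with 0.67 and -0.31 for Smad4, 0.83 and -0.52 for Smad3 and 0.24 and -0.70 for Smad1. The inhibitory Smads, which are feedback targets of the pathway, were Smad6 at -0.14 ± 0.20 and Smad7 at -0.18 ± 0.42, whose arrays read 0.11 and -0.48. Smad2 had a mean of 0.01.

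The target genes did not pass either, and their median was 0.12. The 4 Id genes encode helix-loop-helix proteins that block differentiation factors and are direct BMP targets in many tissues. All 4 had ratios above 0 on both arrays, with a median of 0.21; with median centring in place of loess only Id4 did, although all 4 means were still above 0. Id4 had 93.2 and 109 units in wildtype and 122 and 152 in mutant, a ratio of 0.39 and 0.47, or 0.43 ± 0.06. Id3 had 5752 and 5528 in wildtype and 6613 and 7211 in mutant, a ratio of 0.20 and 0.38. Both genes were short of 1.5-fold, and in the software's own values Id4 passed at 0.80. Id1 and Id2 had means of 0.12 and 0.12.

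The Msx homeobox genes, BMP targets of the neural folds, limbs and posterior mesoderm, read the other way. Msx1 had 2441 and 2768 units in wildtype and 2128 and 2081 in mutant, a ratio of -0.20 and -0.41, or -0.30 ± 0.15. This direction was not stable on array 1, where median centring gave 0.31, against -1.09 on array 2. Msx2 had a mean of -0.05 ± 0.01.

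**Figure D5:**
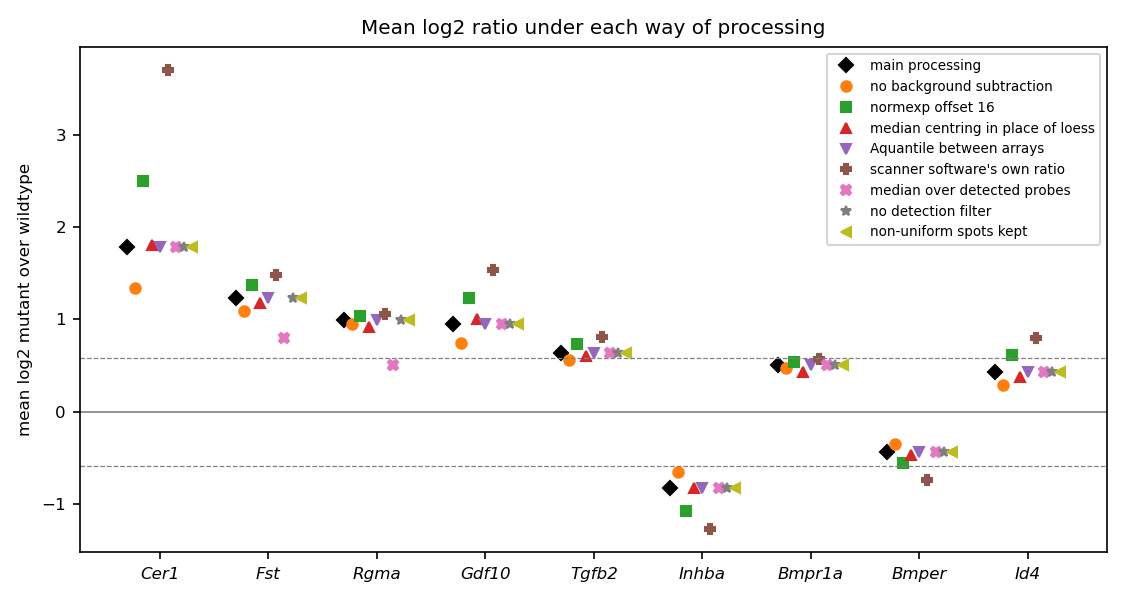
Mean log2 ratio, mutant over wildtype, of the 6 called members and of Bmpr1a, Bmper and Id4 under each way of processing the arrays, with dashed lines at 1.5-fold. Every called member keeps its sign; the spread is widest for Cer1, from 1.34 to 3.70, and the median over probes lowers Rgma to 0.50 and Fst to 0.80.

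A further 79 genes of the pathway, listed by their roles, were read in the same way. Of 70 measured, 0 were called higher and 0 lower, 10 lay above 0 and 28 below 0 on both arrays, and the median log2 ratio was -0.05. With median centring in place of loess 5 lay above 0 and 8 below 0 on both arrays. Among the wider mean ratios were those of Bgn, which encodes the matrix proteoglycan biglycan, at -0.40 ± 0.21 and of Hand2, a transcription factor of the lateral mesoderm and a BMP target, at -0.39 ± 0.08. The 12 other antagonists and the 16 other targets measured had medians of 0.01 and -0.09, against 0.06 and 0.12 for the members of those roles.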

How the data were processed

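Posterior tissue of 13-somite embryos was measured on 2 dye-swapped arrays, with 7 embryos pooled per genotype. The deposited intensity values are mean spot brightness and median local background per dye, not normalised, per the file headers. An alternative used the authors' deposited log10 ratio of Cy5 to Cy3, which the software had corrected for background and dye. Agilent Feature Extraction is given as 9.5.3 in the submitters' processing notes and as 7.5.1 in the file headers.

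From the intensities, background was corrected by normexp (offset 50, which shrinks the ratios of dim genes) over 43430 spots in limma 3.58.1 under R 4.3.3. Loess within each array followed, with control spots at weight 0, and 205 and 90 non-uniform gene spots were left out. Ratios were turned to mutant over wildtype by the dyes in the labels. The brightest measured probe stood for a gene. Summed marker intensities add the measured markers of a list. The steps were tested on simulated data whose changed genes were drawn from brighter probes, so spots as dim as that of Cer1 were not covered.

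Of 41013 probes, 19435 were named by accession, 3620 by symbol and 2908 by synonym through a RefSeq table of GRCm38.p6; 345 fit several genes including the one the files name, 211 fit several and were left unnamed, and 14494 kept the files' name. Genes with full values were all members past the size rule and, in each role, those with the widest ratio in 1 direction on both arrays, to make at least 3. The members and lists were chosen with earlier results of these data known. Alternatives covered background, normalisation, ratio source, probe choice, filters, single arrays and the size threshold. Values of some single genes are left out of the text.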

Additional observations from a re-analysis of the deposited data

How the results depend on the processing

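No called member changed sign in any alternative. With median centring in place of loess, 3 members were higher (Cer1, Fst and Gdf10), and over all genes 27 were higher and 16 lower, against 55 and 60, so the share of calls that were higher went from 47.8% to 62.8%. In the software's own ratios 2 members were lower (Inhba and Bmper), the members' median was 0.074, 1 other pathway gene was higher (Dcn, a matrix proteoglycan), and over all genes 167 were higher and 189 lower. With no background subtraction 38 genes were lower in all, with offset 16 it was 91, and by the mean of both arrays 97. At 2-fold 2 members were higher and 0 lower (all genes 20 and 7), and at 1.3-fold 2 members were lower (all genes 140 and 195). With a single array the members' median was 0.0663 to 0.0808, and over all genes 92 to 259 were higher and 126 to 384 lower. The cause was not tested.

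No paired analysis was possible because the mutant and wildtype pools were already read against each other within an array, and the labels number no pools that could be matched across arrays. Dim genes limit the precision: in the wildtype pool Cer1 and Twsg1 were above background on 1 of 2 arrays, and 46 of the 48 measured members were above it in both pools on both arrays.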

Other observations

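Some genes of the pathway with known roles in blood vessels can be read beside the endothelial markers. These genes were picked after their values were seen and support nothing. Pathway genes with such roles and other values may have been left out. Acvrl1, an endothelial type I receptor, had a mean log2 ratio of -0.32, Eng, its co-receptor endoglin, -0.10, and Gata2, a transcription factor of endothelium and blood, -0.36, with Bmper at -0.43. The median over the 10 endothelial markers was -0.43.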
